A study of Mus musculus with 20 samples.

Results

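The 32 genes described here make cholesterol and fatty acids or control that synthesis. They were matched by mouse gene symbol to the NCBI Gene numbers of the deposited tables, and all 32 were found among 19311 genes in one set of libraries and among 24454 genes in the other. RNA sequencing had been done on 20 libraries in 10 groups of 2 replicates, all from cells of the MMTV-PyMT mouse mammary tumour model. Py2T LT cells are Py2T breast cancer cells, an epithelial line, held in TGF-beta1 at 2 ng/ml for more than 10 days, a cytokine that drives epithelial cells towards a mesenchymal state. M1, M2 and M3 are stable mesenchymal clones, each a single clone, and whether TGF-beta1 was added to them is not given in the sources used here. These 4 groups form the first set, as RPKM (reads scaled by gene length and library size). The second set, as CPM (reads scaled by library size only), holds 6 groups of M3 cells that carried a control shRNA (shControl) or an shRNA against Tet2 (shTet2) or Mbd3 (shMbd3). Each of the 3 was sequenced without and with the histone deacetylase inhibitor CI994 at 2 µM for 72 hours. Tet2 oxidises 5-methylcytosine in DNA, and Mbd3 belongs to NuRD, a chromatin remodelling complex that contains histone deacetylases. The RNA came from 2 independent experiments. The p-values rest on the spread between replicate libraries, pooled over all groups of a set. The fit did not pair libraries by replicate number. Every difference from a group rests on 2 libraries a side.

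Cholesterol is built from acetyl-CoA through mevalonate and isoprenoid units to squalene, which is then closed into a ring and trimmed to cholesterol in a chain of further steps. Most of these enzymes are switched on together when sterols run low: Scap then escorts the membrane-bound transcription factors Srebf1 and Srebf2 out of the endoplasmic reticulum for cleavage, and the Insig proteins hold it back when sterols are plentiful. Fatty acid synthesis draws on the same acetyl-CoA and is controlled largely through Srebf1. Tumour and mammary cells use both routes to make membranes, and the mammary gland uses them to make milk lipid. The genes fall into 8 of the mevalonate pathway to squalene, 10 from squalene to cholesterol, 6 of sterol sensing and 8 of fatty acid synthesis and desaturation.

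The promoters of 5 genes are shown because these genes stand for the patterns described in the sections on values. A mevalonate enzyme and a ring-trimming enzyme moved with most of the pathway in M1, M3 and shTet2. The others are a feedback regulator, an enzyme that moved against most of the pathway with shTet2, and a fatty acid enzyme. The sequences are RefSeq promoters on build GRCm38.p6, each from 200 bases before the annotated start to 20 bases after it. Hmgcs1 (chr13:119690151-119690370, plus strand) makes HMG-CoA from acetyl-CoA units. Msmo1 (chr8:64733559-64733778, minus strand) removes methyl groups from the sterol ring. Insig1 (chr5:28071212-28071431, plus strand) retains Scap when sterols are plentiful. Hsd17b7 (chr1:169969186-169969405, minus strand) reduces a ketone of the sterol ring, and Fasn (chr11:120824528-120824747, minus strand) assembles palmitate. Capitals mark the sterol regulatory element TCACNCCAC, the NF-Y box CCAAT and the E-box CACGTG on either strand, so that an NF-Y box on the other strand reads ATTGG.
Hmgcs1: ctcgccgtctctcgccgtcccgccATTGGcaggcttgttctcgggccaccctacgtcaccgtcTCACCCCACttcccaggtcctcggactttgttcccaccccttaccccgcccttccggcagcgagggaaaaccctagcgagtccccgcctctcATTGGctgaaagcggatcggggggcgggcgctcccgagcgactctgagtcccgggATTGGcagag
Msmo1: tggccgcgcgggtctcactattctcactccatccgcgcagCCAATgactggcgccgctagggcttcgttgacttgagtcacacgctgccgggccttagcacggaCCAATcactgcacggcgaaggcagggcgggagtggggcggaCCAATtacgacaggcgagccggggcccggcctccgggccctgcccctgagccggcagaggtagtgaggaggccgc
Insig1: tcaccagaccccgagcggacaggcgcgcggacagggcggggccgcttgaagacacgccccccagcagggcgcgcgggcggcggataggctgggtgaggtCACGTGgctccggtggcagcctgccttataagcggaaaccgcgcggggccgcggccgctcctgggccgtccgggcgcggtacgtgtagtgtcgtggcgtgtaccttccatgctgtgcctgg
Hsd17b7: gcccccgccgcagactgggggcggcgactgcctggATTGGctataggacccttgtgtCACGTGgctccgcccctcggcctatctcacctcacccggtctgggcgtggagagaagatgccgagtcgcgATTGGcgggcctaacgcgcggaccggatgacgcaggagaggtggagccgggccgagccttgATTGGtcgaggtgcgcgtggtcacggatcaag
Fasn: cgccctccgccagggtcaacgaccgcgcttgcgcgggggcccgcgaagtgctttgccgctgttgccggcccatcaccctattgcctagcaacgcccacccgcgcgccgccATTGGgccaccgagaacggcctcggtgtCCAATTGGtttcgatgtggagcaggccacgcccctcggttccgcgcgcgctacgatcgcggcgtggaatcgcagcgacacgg

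The Hmgcs1 stretch held 1 sterol regulatory element and 3 NF-Y boxes. Those of Msmo1, Hsd17b7 and Fasn held 3 NF-Y boxes each, of which 2 in Fasn overlapped by 2 bases. Those of Insig1 and Hsd17b7 held 1 E-box each. The search covered 33 promoters of 25 of the 32 genes, from 250 bases before to 50 after each start. The NF-Y box was found in 21 of the 33 (63.64%) against 37.41% of all 32851 promoters, and the GC box GGGCGG in 25 (75.76%) against 35.66%. The E-box was found in 6 (18.18%) against 7.15%, and the sterol regulatory element in 1 (3.03%) against 1.242%. A gene with several promoters counts more than once here, and overlapping promoters of Scap hold the same E-box. By gene, the NF-Y box was found in 20 of the 25, the GC box in 21, the E-box in 5 and the sterol regulatory element in 1. Such a match describes the letters and is not a measured binding site.

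In the CPM libraries 16086082 to 24977595 reads were counted, so that 3 reads, the limit that a count of 0 allows, equal 0.120 to 0.186 CPM. That limit covers counting error only. The absolute depth of the RPKM libraries is unknown, and by the steps of their low values they lay between 0.865 and 1.06 times the depth of the first Py2T LT library. Replicate 1 of untreated shControl stood apart from the other libraries. Its log2 difference from replicate 2 had a median of 0.67 in the tenth of genes with the lowest GC content and of -1.13 in the tenth with the highest. That change of -1.80 compares with -0.40 to 0.01 in the other 5 CPM pairs. For GC-rich members the library was low: Mvd was -2.54, Mvk -2.06, Srebf1 -1.99, Fasn -1.75 and Pmvk -1.69 against replicate 2, on the log2 scale. Counts of called members that rest on untreated shControl are therefore given also without this library, and so are some of the values it moves by over 1.5 times. The knockdown targets were read first as a check of the labels. Tet2 was 15.1 and 13.8 CPM in shControl and 8.41 and 7.97 CPM in shTet2, a log2 difference of -0.76 ± 0.18 (SE, limma adjusted p = 0.0176). With CI994 it was 8.13 and 11.4 CPM in shControl and 6.30 and 7.42 CPM in shTet2 (adjusted p = 0.127). Mbd3 was 22.1 and 27.7 CPM in shMbd3 against 5.40 and 66.5 CPM in shControl, so the library labelled shControl replicate 1 had less Mbd3 than the knockdown, and the call did not pass (adjusted p = 0.798). With CI994, Mbd3 was 16.6 and 21.9 CPM in shMbd3 and 53.6 and 67.7 CPM in shControl (adjusted p = 0.198).

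Markers of other cell types were low. Of the adipocyte markers, Adipoq, Plin1, Cidec and Lep stood between 0 and 0.0841 in every library that lists them, and Fabp4 did not exceed 1.31. The macrophage marker Adgre1 was at 0 in all 20 libraries, while Cd68, a lysosomal protein of macrophages and some other cells, reached 15.8 and 16.6 CPM in shTet2 with CI994 against 1.05 and 2.06 CPM in untreated shControl. Vimentin (Vim) and keratin 8 (Krt8) were both abundant in all groups. Against Py2T LT, 4 of 5 mesenchymal markers (Vim, Fn1, Zeb1 and Col1a1) were lower in each of M1, M2 and M3 and Cdh2 was higher, with list medians of -1.60, -0.96 and -1.30 on the log2 scale. Of 6 epithelial markers, 3, 4 and 2 were higher and 1, 0 and 0 lower. Of all tested genes 30.4%, 28.7% and 30.3% were higher in M1, M2 and M3, and 30.5%, 28.8% and 29.1% lower. The epithelial count of 2 in M3 is near that share. In both knockdowns without CI994 4 of the 6 epithelial markers were higher and 0 lower than in shControl. Of the 5 mesenchymal markers 2 were lower (Vim and Zeb1) and 1 higher with shTet2. With shMbd3, 3 of them were lower, Vim and Zeb1 among them, and 2 higher. Of all tested genes 10.5% were higher and 12.9% lower with shTet2, and 15.3% and 16.9% with shMbd3. With CI994, 5, 2 and 1 of the 6 epithelial markers were higher in shControl, shTet2 and shMbd3 than without it. So were 2, 3 and 2 of the 5 mesenchymal markers, where 17.9%, 12.6% and 7.58% of all tested genes were higher. Cd68 was higher in all 3 (log2 differences of 1.84, 2.24 and 2.12). The epithelial cadherin Cdh1 was 16.3 and 25.7 CPM in shControl against 202 and 207 CPM in shTet2 and 169.7 and 202 CPM in shMbd3. The part of these marker shifts in the lipid gene results was not tested.

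**Figure D1:**
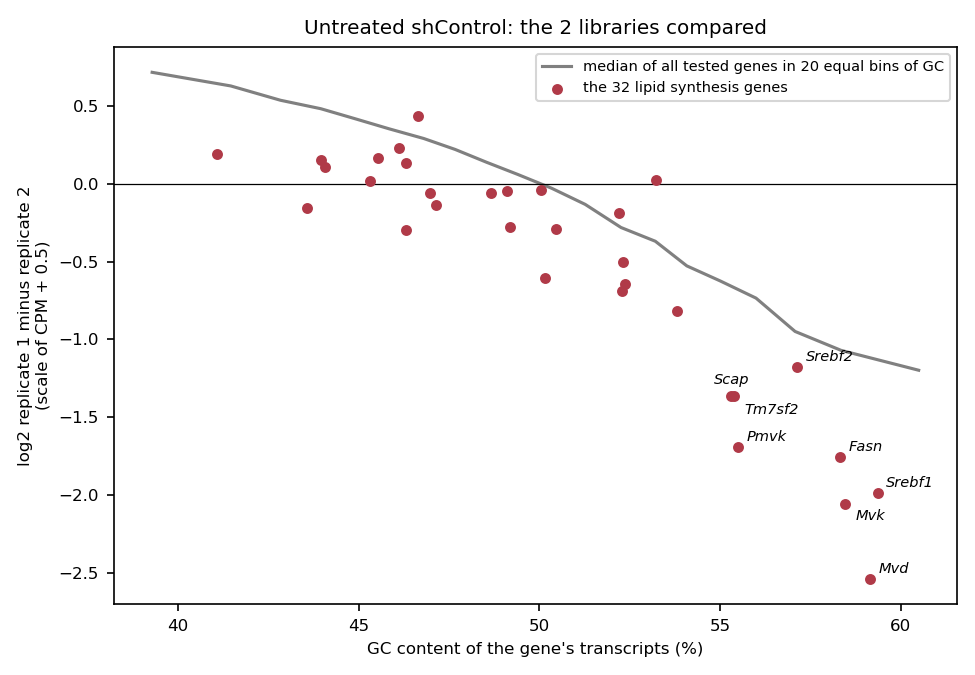
The log2 difference between the 2 untreated shControl libraries is plotted against the GC content of each gene's transcripts. Points are the 32 genes and the grey line is the median of all tested genes in 20 equal bins. The 8 named genes, all rich in GC, lie between -1.18 for Srebf2 and -2.54 for Mvd.

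Of the 17 genes from acetyl-CoA to cholesterol other than Idi1, 14 were lower in M3 than in Py2T LT cells. In M1 12 were lower and in M2 7, and 0, 2 and 2 were higher in M3, M1 and M2. Genes were tested with limma on log2(value + 0.5), and a call means an adjusted p under 0.05 over all genes tested. In M3, 23 of the 32 genes were lower and 4 higher, where 29.1% of all tested genes were lower and 30.3% higher. In M1, 18 were lower and 5 higher, against 30.5% and 30.4% of all genes. In M2, 11 were lower and 6 higher, against 28.8% and 28.7%. The median log2 difference over the 32 was -0.56 in M3, -0.45 in M1 and -0.23 in M2, beside 0.01, -0.02 and 0.00 over all tested genes. The M2 median was -0.36 without Py2T LT replicate 1, and -0.15 without either Py2T LT replicate 2 or M2 replicate 2. One of the genes, Idi1, passed the filter on low values only through Py2T LT, where it is high, so its fall was set by the filter. Without it the counts were 22 lower of 31 in M3, 17 in M1 and 11 in M2. The 3 comparisons share the Py2T LT libraries. In bulk RNA, fewer cells that express a gene cannot be told apart from less RNA per cell.

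Among the 7 mevalonate genes other than Idi1, 5 fell in M3, 4 fell and 2 rose in M1, and 2 fell and 2 rose in M2. The rises in M1 and both counts in M2 are near the shares of all tested genes. Those shares were 30.4% higher in M1, and 28.7% higher and 28.8% lower in M2. Hmgcs1 stood at 20.7 and 30.0 RPKM in Py2T LT, 12.1 and 12.1 in M1, 20.3 and 15.5 in M2, and 11.2 and 9.65 in M3. All 6 clone libraries were below both Py2T LT libraries, M2 only just. The log2 difference was -1.22 ± 0.19 (SE, adjusted p = 0.00069) in M3, -1.05 ± 0.19 (adjusted p = 0.0015) in M1 and -0.49 ± 0.19 (adjusted p = 0.0545) in M2. Fdps, which makes farnesyl diphosphate, was 12.7 and 14.3 RPKM in Py2T LT, 8.60 and 6.81 in M1, 8.65 and 7.42 in M2, and 5.04 and 4.83 in M3. It fell in every clone, with log2 differences of -1.36 ± 0.14 in M3, -0.82 ± 0.14 in M1 and -0.72 ± 0.14 in M2. Fdft1, the squalene synthase, also fell in every clone, at -1.10 ± 0.14, -0.70 ± 0.14 and -0.61 ± 0.14 in the same order. Mevalonate kinase (Mvk) went the other way, at 9.68 and 9.60 RPKM in Py2T LT against 16.7 and 14.2 in M1, and rose by 0.61 ± 0.12 there and by 0.44 ± 0.12 in M2. Acat2, which joins 2 acetyl-CoA units, also rose in M1 (0.37 ± 0.11) and M2 (0.38 ± 0.11). Idi1, which isomerises isopentenyl diphosphate, was close to the filter of 1 RPKM, at 1.14 and 1.11 RPKM in Py2T LT and 0.288 to 0.982 in the clones. The kinase Pmvk and the decarboxylase Mvd, which act between Mvk and Idi1, fell in M3 (-0.75 ± 0.16 and -0.83 ± 0.15), and Mvd also in M1 (-0.44 ± 0.15).

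Of the 10 genes that turn squalene into cholesterol, 9 fell in M3, 8 in M1 and 5 in M2, and 0 passed upwards by limma in any clone. Of all tested genes, 29.1%, 30.5% and 28.8% fell and 30.3%, 30.4% and 28.7% rose, in the same order. Cyp51, the lanosterol demethylase, was 30.7 and 38.0 RPKM in Py2T LT, 13.7 and 13.0 in M1, 25.1 and 23.4 in M2, and 12.3 and 12.4 in M3. The M2 libraries lay between Py2T LT and the other clones without overlap. The log2 differences were -1.43 ± 0.12 (adjusted p = 1.46e-05) in M3, -1.37 ± 0.12 (adjusted p = 2.07e-05) in M1 and -0.50 ± 0.12 (adjusted p = 0.00648) in M2. Dhcr7, which reduces 7-dehydrocholesterol in the last steps, was 61.5 and 57.6 RPKM in Py2T LT, 25.0 and 29.1 in M1, 34.1 and 35.1 in M2, and 19.8 and 24.2 in M3. It was lower in all 6 clone libraries than in either Py2T LT library, with log2 differences of -1.42 ± 0.13 in M3, -1.17 ± 0.13 in M1 and -0.78 ± 0.13 in M2. Msmo1 separated the clones, at 56.8 and 63.1 RPKM in Py2T LT, 34.9 and 30.7 in M1, 74.9 and 67.1 in M2, and 25.9 and 22.3 in M3. It fell in M3 (-1.29 ± 0.11) and M1 (-0.90 ± 0.11), while M2 was above both Py2T LT libraries without passing the test (0.23 ± 0.11, adjusted p = 0.117). Hsd17b7 did not pass in any clone, with log2 differences of -0.05 ± 0.13 in M3, -0.14 ± 0.13 in M1 and 0.31 ± 0.13 in M2 (adjusted p = 0.0689 there). Of the other genes of this stretch, Nsdhl, Ebp and Tm7sf2 fell in every clone. Tm7sf2, a sterol reductase, was the only 1 of the 10 whose log2 difference was lowest in M2 (-0.99 ± 0.16, against -0.45 ± 0.16 in M1 and -0.56 ± 0.16 in M3). Lss, which closes the ring, and Sc5d, a desaturase of the ring, fell in M1 (-0.55 ± 0.14 and -0.72 ± 0.13) and M3 (-0.52 ± 0.14 and -0.58 ± 0.13). Squalene epoxidase (Sqle), the first enzyme of the stretch, was 41.7 and 49.2 RPKM in Py2T LT and 35.3 to 54.3 in the clones, and fell in M3 alone (-0.34 ± 0.10).

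The 6 sterol sensing genes did not move together. Insig1 and Insig2, which share the task of retaining Scap, went in opposite directions in M1 and M3. Insig1 was 13.7 and 18.6 RPKM in Py2T LT, 6.12 and 7.31 in M1, 15.8 and 12.2 in M2, and 7.29 and 6.49 in M3. Insig2 was 8.83 and 9.10 RPKM in Py2T LT, 16.4 and 15.9 in M1, 21.3 and 21.9 in M2, and 23.0 and 22.2 in M3. In Py2T LT Insig1 was thus the higher of the pair in RPKM, and in all 6 clone libraries Insig2 was. The CPM set did not show that order in M3 cells. Untreated shControl had 116 and 138 CPM of Insig1 and 111 and 89.3 CPM of Insig2, with exon lengths of 3.09 and 3.47 kb. The reason for this disagreement between the sets was not tested. Insig1 fell in M1 (-1.24 ± 0.19, adjusted p = 0.000541) and M3 (-1.16 ± 0.19, adjusted p = 0.000817) on the log2 scale, and was -0.20 ± 0.19 (adjusted p = 0.375) in M2. Insig2 rose by 0.77 ± 0.09, 1.21 ± 0.09 and 1.29 ± 0.09 in M1, M2 and M3, the last with adjusted p = 5.6e-06. The 2 transcription factors also parted: Srebf2, which chiefly drives cholesterol genes, fell in M1, M2 and M3 (-0.60 ± 0.10, -0.63 ± 0.10 and -0.79 ± 0.10), and Srebf1 rose by 0.58 ± 0.09, 0.46 ± 0.09 and 0.55 ± 0.09. Stard4, a carrier of sterols between membranes, did not pass in any clone and differed between the M1 libraries (8.25 and 14.6 RPKM). Scap fell in M3 (-0.34 ± 0.09).

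Of 8 fatty acid synthesis genes, 5 fell and 2 rose in M3, 3 fell and 1 rose in M1, and 3 fell and 2 rose in M2. The counts in M1 and M2 are near the shares of all genes, of which 30.5% and 28.8% fell and 30.4% and 28.7% rose. ATP citrate lyase (Acly), which supplies cytosolic acetyl-CoA, was 119 and 114 RPKM in Py2T LT and between 77.5 and 89.9 in the clones, with log2 differences of -0.53 ± 0.10, -0.42 ± 0.10 and -0.55 ± 0.10 in M1, M2 and M3. Fasn was 101 and 89.0 RPKM in Py2T LT and 63.4 to 93.7 in the clones, and did not pass in M1 (adjusted p = 0.15), M2 (adjusted p = 0.064) or M3 (adjusted p = 0.0532). The stearoyl-CoA desaturase Scd1 went the other way, at 52.8 and 59.7 RPKM in Py2T LT, 65.9 and 86.4 in M1, 96.7 and 102 in M2, and 93.7 and 98.4 in M3, and rose by 0.38 ± 0.14, 0.81 ± 0.14 and 0.77 ± 0.14. Its near copy Scd2 rose in M2 (0.50 ± 0.16) and M3 (0.48 ± 0.16), and how reads shared by the Scd genes were counted is not given in the sources used here. The elongase Elovl6 fell in M1 (-0.86 ± 0.18) and M3 (-0.61 ± 0.18). Acaca, the acetyl-CoA carboxylase, fell in the same clones (-0.58 ± 0.17 and -0.51 ± 0.17). The desaturases Fads1 and Fads2 fell in M2 (-0.57 ± 0.09 and -0.37 ± 0.13) and M3 (-0.29 ± 0.09 and -0.38 ± 0.13).

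Of the calls against Py2T LT, 16 of 23 in M1, 8 of 17 in M2 and 18 of 27 in M3 were kept whichever of the 8 libraries was left out, or, for Idi1, whichever of the 6 whose omission left it in the test. The 18 in M3 include Idi1, whose fall was set by the filter. Those kept in all 3 clones were Dhcr7, Fdps, Srebf2, Srebf1 and Insig2. Among the genes named, the Scd1 call in M1 was lost without 7 of the 8 libraries, where adjusted p reached 0.252. In M1, Acaca (-0.35) and Acat2 (0.24) were lost without M1 replicate 1, and Mvd (-0.26), Tm7sf2 (-0.27) and Scd1 (0.17) without M1 replicate 2. Scd2 was lost in M2 (0.32) and M3 (0.28) without Py2T LT replicate 1, and Ebp in M2 (-0.36) without M2 replicate 2. Fads2 in M2 was kept in 2 of the 8 omissions of a library, with log2 differences of -0.44 to -0.27. It was also lost without the filter on low values and with the GC trend removed. Nsdhl in M2 ranged from -0.45 to -0.22 and was lost without Py2T LT replicate 2 or either M2 library. Also lost was the Cyp51 call in M2, without Py2T LT replicate 2 or M2 replicate 2 (adjusted p up to 0.0618). The M2 count fell to 8 without M2 replicate 2 and to 11 without Py2T LT replicate 2.

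**Figure D2:**
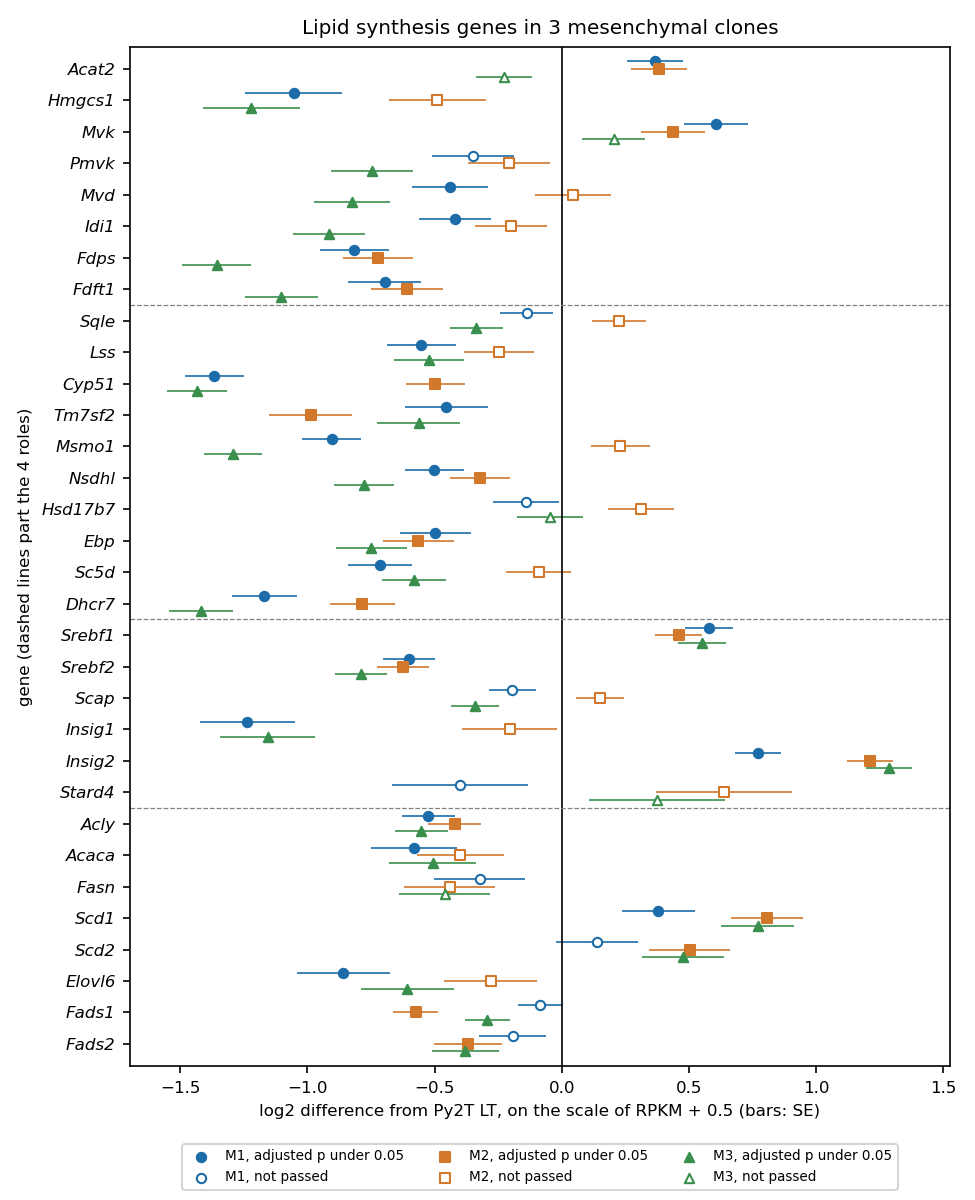
Each row is 1 of the 32 genes, and the horizontal axis is the log2 difference of M1, M2 or M3 from Py2T LT on the scale of RPKM + 0.5, with bars for SE and filled symbols for an adjusted p under 0.05. Symbols of M3 and M1 lie left of 0 for most genes, M2 lies on both sides of it, and Insig2 reaches 0.77 to 1.29 on the right.

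The clones were also compared with each other. M2 was higher than M3 in 15 of the 32 genes and lower in 0, where 9.61% of all tested genes were higher and 10.6% lower, with a median log2 difference of 0.34 against -0.01 over all genes. It was higher than M1 in 10 and lower in 2, against 11.1% and 11.8%, with a median of 0.26. M1 and M3 differed in 2 genes, Acat2 higher (0.60 ± 0.11) and Insig2 lower (-0.52 ± 0.09) in M1, against 1.72% and 3.2% of all genes. The genes higher in M2 than in M3 were 7 of the 8 mevalonate genes, 6 of the 10 squalene to cholesterol genes, Insig1 and Scap. Of the 8 fatty acid genes 0 passed by limma, with Fads1 nearest (-0.28 ± 0.09, adjusted p = 0.0576). Msmo1 was 1.52 ± 0.11 higher in M2 than in M3 on the log2 scale (adjusted p = 7.15e-05) and 1.14 ± 0.11 higher than in M1 (adjusted p = 0.000446). Cyp51 followed at 0.94 ± 0.12 and 0.87 ± 0.12. Insig1 was 0.95 ± 0.19 higher than in M3 and 1.03 ± 0.19 higher than in M1. The desaturase Fads1 was lower in M2 than in M1 (-0.49 ± 0.09), at 32.2 and 32.2 RPKM against 45.1 and 47.9. The clones differed in the epithelial cadherin as well: Cdh1 was 6.01 and 4.27 RPKM in M2 and 1.05 to 1.80 RPKM in M1 and M3, and its part in these differences was not tested.

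These counts rest on few libraries. Only the Cyp51 and Msmo1 calls of M2 against M3, and likewise of M2 against M1, were kept whichever library was left out. Against M3 the count fell to 3 without M2 replicate 1, 5 without M2 replicate 2, 7 without M3 replicate 1 and 9 without M3 replicate 2. Against M1 it fell to 2 without M2 replicate 1, 3 without M2 replicate 2 and 7 without M3 replicate 2. For M1 against M3 it was 12 without M1 replicate 2, and 0 without any one of the M2 or M3 libraries. Fitting only the groups compared gave 6 genes for M2 against M1 and 0 for M1 against M3.

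In M3 cells with shTet2, cholesterol synthesis genes were higher than with shControl in every stretch of the pathway. Without CI994, 16 of the 32 genes rose and 1 fell, where 10.5% of all tested genes rose and 12.9% fell, and the median log2 difference was 0.68 against 0.02 over all genes. Without shControl replicate 1 that median was 0.35. The rises were 5 of the 8 mevalonate genes, 7 of the 10 squalene to cholesterol genes, Insig1, and 3 of the 8 fatty acid genes (Scd1, Scd2 and Fads2). Hmgcs1 was 81.8 and 98.9 CPM in shControl and 179.9 and 217 CPM in shTet2 (1.16 ± 0.16, adjusted p = 0.00123). Msmo1 was 168 and 169.6 CPM against 322 and 352 CPM, a log2 difference of 1.02 ± 0.10 (adjusted p = 0.000156). Sc5d was 60.2 and 58.8 CPM against 110.0 and 112 CPM (0.92 ± 0.10, adjusted p = 0.000186). In these genes both shTet2 libraries lay well above both shControl libraries, and the 2 shControl libraries were close to each other in Msmo1 and Sc5d. Idi1 was 50.7 and 48.1 CPM against 88.5 and 94.1 CPM (0.91 ± 0.15), and Sqle was 207 and 234 CPM against 339 and 361 CPM (0.70 ± 0.09). Insig1 was 116 and 138 CPM against 227 and 268 CPM (0.99 ± 0.19, adjusted p = 0.00521), while Insig2 was 111 and 89.3 CPM against 81.0 and 75.5 CPM (-0.32 ± 0.15, adjusted p = 0.164). Cyp51 rose by 1.0 ± 0.12 on the log2 scale, Lss by 0.91 ± 0.20, Acat2 by 0.85 ± 0.11, Fdps by 0.81 ± 0.18, Fdft1 by 0.65 ± 0.11, Dhcr7 by 0.63 ± 0.19 and Nsdhl by 0.60 ± 0.10. The sterol isomerase Ebp (0.37 ± 0.13, adjusted p = 0.0657) and Stard4 (0.13 ± 0.12, adjusted p = 0.422) did not pass. Without shControl replicate 1 the differences of Fdps and Dhcr7 were 0.48 and 0.28.

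Hsd17b7 was the member that fell with shTet2, at 42.8 and 57.3 CPM in shControl and 26.1 and 33.7 CPM in shTet2, without overlap (-0.70 ± 0.17, adjusted p = 0.0164). The call was lost without shTet2 replicate 1 (adjusted p = 0.125) and with the GC trend removed (-0.56, adjusted p = 0.0535). Among fatty acid genes, Scd1 rose from 483 and 542 CPM to 771 and 822 CPM (0.67 ± 0.14), and Fads2 was 0.79 ± 0.22, or 0.38 without shControl replicate 1. Acly, Acaca (acetyl-CoA carboxylase), Elovl6 and Fads1 did not pass, with log2 differences of 0.15 ± 0.14, 0.09 ± 0.09, 0.19 ± 0.14 and -0.07 ± 0.09. For Acly, shControl replicate 1 stood at -0.50 against replicate 2 on the log2 scale. The GC-rich members differed widely between the 2 control libraries. Mvd was 1.14 and 9.68 CPM in shControl against 10.4 and 15.2 CPM in shTet2 (1.72 ± 0.63, adjusted p = 0.0774), and without shControl replicate 1 it was 0.45 (adjusted p = 0.151). Fasn changed sign, from 0.45 ± 0.43 with both control libraries to -0.43 (adjusted p = 0.0348) without that library.

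Without shControl replicate 1 the shTet2 count was 16 higher and 2 lower, with Fasn the second lower gene. It rose to 26 and 2 when shControl replicate 2 was left out, and was 9 and 1 without shTet2 replicate 2. With each library's GC trend removed 20 genes were higher and 0 lower, and with edgeR or DESeq2 on the recovered reads 16 and 1. Fitting only the 4 libraries compared called 0 genes. The calls of Acat2, Cyp51, Fdft1, Hmgcs1, Idi1, Msmo1, Nsdhl, Sc5d and Sqle were kept whichever of the 12 libraries was left out. The other 8 calls, of Dhcr7, Fads2, Fdps, Hsd17b7, Insig1, Lss, Scd1 and Scd2, were each lost without at least 1 library. Those of Fdps, Insig1, Lss and Scd1 were lost without shTet2 replicate 2 alone. The Dhcr7 call was lost without 10 of the 12 libraries.

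**Figure D3:**
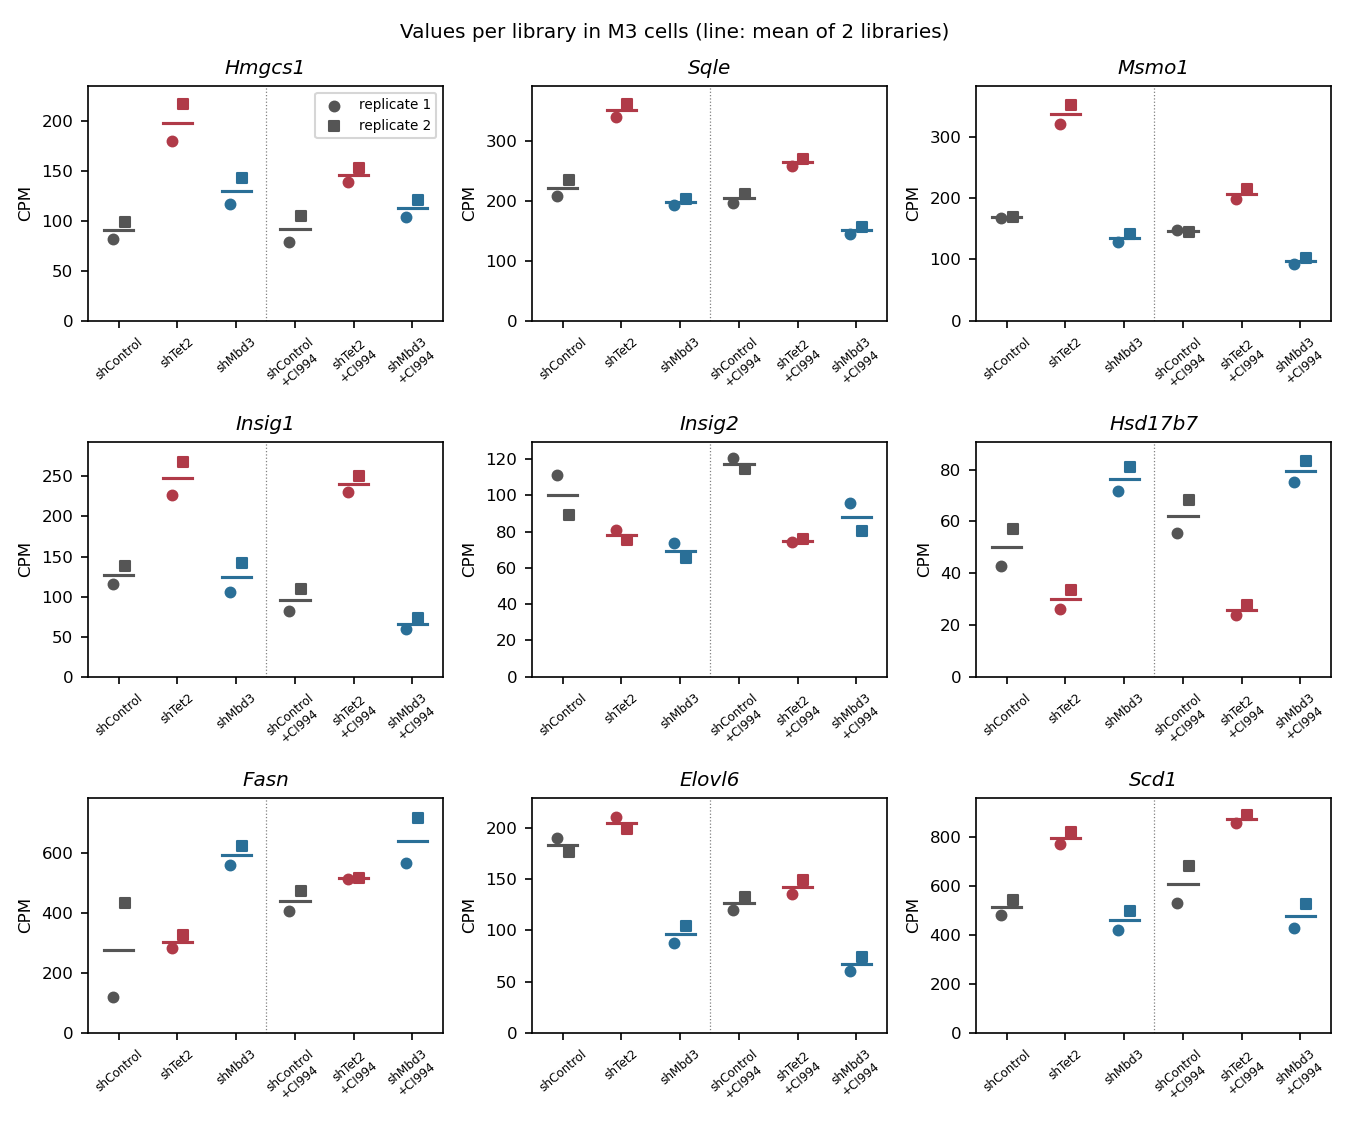
CPM of 9 genes in each of the 12 M3 shRNA libraries, with circles for replicate 1, squares for replicate 2 and lines for the mean of 2 libraries. Untreated groups stand left of the dotted line and groups with CI994 right of it. Among the untreated libraries, and again among those with CI994, shTet2 is highest for Hmgcs1, Sqle, Msmo1, Insig1 and Scd1 and lowest for Hsd17b7, and shMbd3 is lowest for Elovl6.

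With shMbd3, 10 of the 32 genes changed, in all near the share of all tested genes given next. Of these 10, 5 were among the 8 of fatty acid synthesis, 4 higher and 1 lower. Without CI994, 7 of the 32 genes rose and 3 fell, where 15.3% of all tested genes rose and 16.9% fell, and the median log2 difference was 0.37 against 0.00. Without shControl replicate 1 that median was 0.14. The rises were Acaca, Acly, Fads2, Fasn, Acat2, Dhcr7 and Hsd17b7, and the falls Elovl6, Insig2 and Msmo1. Acaca, which commits acetyl-CoA to fatty acids, was 119.9 and 135 CPM in shControl and 191 and 184 CPM in shMbd3 (0.49 ± 0.09, adjusted p = 0.00382). Fads2, a desaturase of polyunsaturated fatty acids, was 62.8 and 121 CPM against 202 and 217 CPM (1.20 ± 0.22, adjusted p = 0.00402). Elovl6, which lengthens palmitate, was 190.1 and 176 CPM against 87.6 and 104 CPM (-1.0 ± 0.14, adjusted p = 0.000895). The groups did not overlap in these 3 genes, although the 2 shControl libraries differed widely in Fads2. Fasn was 118 and 435 CPM against 559.8 and 624 CPM (1.32 ± 0.43, adjusted p = 0.0446). The Fasn call was kept in 2 of the 12 omissions of a library, with adjusted p up to 0.169 in the others, and was lost with edgeR, without the filter on low values and with only the groups compared. Its value was 0.44 without shControl replicate 1 and 2.19 without shControl replicate 2. Without shControl replicate 1, Fads2 was 0.79, Acly 0.42, Dhcr7 0.30 and Insig2 -0.36, against 1.20, 0.67, 0.64 and -0.58 with it.

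In the cholesterol branch Msmo1 fell, from 168 and 169.6 CPM to 128 and 141 CPM (-0.39 ± 0.10, adjusted p = 0.0199). With the GC trend removed it was -0.07 (adjusted p = 0.677). Hsd17b7 was 42.8 and 57.3 CPM in shControl and 71.8 and 81.1 CPM in shMbd3 (0.56 ± 0.17, adjusted p = 0.0339). That call was lost without shControl replicate 1 (0.41, adjusted p = 0.0761). Insig1 was -0.11 ± 0.19 (adjusted p = 0.673) and Hmgcs1 0.46 ± 0.16 (adjusted p = 0.0589).

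Without shControl replicate 1 the shMbd3 count was 8 higher and 4 lower, and without shControl replicate 2 it was 19 and 3. Leaving out either shMbd3 library gave 3 and 1. With the GC trend removed 13 rose and 2 fell, with DESeq2 10 and 3, and fitting only the groups compared called 0 genes. Acaca, Acat2, Fads2 and Elovl6 were kept whichever library was left out.

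The knockdowns were set against each other directly, which leaves out shControl. In shTet2 12 genes were higher than in shMbd3 and 4 lower, where 9.55% of all tested genes were higher and 9.6% lower, with a median log2 difference of 0.27 against 0.00 (0.17 without shTet2 replicate 2 and 0.18 with scaling by library size alone). Msmo1 was 1.41 ± 0.10 higher (adjusted p = 5.15e-05), Elovl6 1.19 ± 0.14 higher and Insig1 1.10 ± 0.19 higher. Hsd17b7 was lower by -1.26 ± 0.17 (adjusted p = 0.00107), and Acly, Acaca and Fads1 were the other genes lower in shTet2. With CI994 in both, 11 genes were higher and 2 lower, against 11.1% and 10.8% of all genes. Insig1 was then 231 and 251 CPM in shTet2 and 59.1 and 73.7 CPM in shMbd3, a log2 difference of 1.89 ± 0.19 (adjusted p = 0.000214). Hsd17b7 was 23.9 and 27.7 CPM against 75.3 and 83.4 CPM (-1.57 ± 0.17, adjusted p = 0.000325), and Stard4 was the other gene lower in shTet2.

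Cyp51, Elovl6, Hsd17b7, Insig1, Msmo1, Nsdhl, Scd1 and Sqle were called in both of these comparisons whichever library was left out. The untreated count was 10 genes in all without shTet2 replicate 2 or without shMbd3 replicate 1. With CI994 it was 8 without shMbd3 replicate 1, and 22 and 21 without shControl replicate 1 or 2, whose spread enters the shared fit.

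The effect of CI994 itself was read within each shRNA. In shControl 3 genes rose (Dhcr7, Ebp and Fads2) and 3 fell (Idi1, Cyp51 and Elovl6), where 17.9% of all tested genes rose and 15.7% fell. In shTet2 0 rose and 8 fell, against 12.6% and 11.7%, and in shMbd3 0 rose and 8 fell, against 7.58% and 5.11%. EdgeR and DESeq2 also called 0 genes higher in these 2 comparisons. Fitting only the groups compared called 9 higher and 12 lower in shTet2 and 2 and 11 in shMbd3, and with the GC trend removed 1 was higher and 11 lower in shMbd3. By limma 9 and 10 genes in all had an unadjusted p under 0.05. The median log2 differences over the 32 genes were 0.21, -0.08 and -0.14, against 0.03, 0.01 and 0.00 over all genes. The first was 0.06 without untreated shControl replicate 1 and 0.40 without untreated replicate 2. The second was -0.03 without untreated shTet2 replicate 2 and -0.01 with scaling by library size alone, and the third -0.07 without untreated shMbd3 replicate 2 and -0.22 without treated replicate 2. Idi1, Cyp51 and Elovl6 fell in all 3, although in shControl these 3 calls were lost with the GC trend removed. Idi1 was 50.7 and 48.1 CPM in shControl and 30.2 and 35.3 with CI994, 88.5 and 94.1 in shTet2 and 37.7 and 46.1 with CI994, and 45.6 and 52.9 in shMbd3 and 35.8 and 31.5 with CI994. Its log2 differences were -0.62 ± 0.15 (adjusted p = 0.0141), -1.19 ± 0.15 (adjusted p = 0.000835) and -0.55 ± 0.15 (adjusted p = 0.0396). Treated and untreated libraries did not overlap in any of the 3. The differences of Cyp51 were -0.40 ± 0.12, -0.80 ± 0.12 and -0.68 ± 0.12, and those of Elovl6 -0.57 ± 0.14, -0.60 ± 0.14 and -0.52 ± 0.14. Sqle, Msmo1 and Nsdhl, which removes a carboxyl group from the sterol ring, fell in shTet2 and shMbd3. Nsdhl was 132 and 129 CPM in shTet2 and 83.5 and 84.0 with CI994 (-0.71 ± 0.10), and 90.3 and 92.4 CPM in shMbd3 and 55.4 and 59.6 with CI994 (-0.67 ± 0.10). In shControl it was 89.0 and 86.0 CPM and 78.3 and 74.6 with CI994 (-0.23 ± 0.10, adjusted p = 0.0927). Insig1 and Acaca fell in shMbd3 (-0.90 ± 0.19 and -0.49 ± 0.09), and Stard4 and Sc5d in shTet2 (-0.54 ± 0.12 and -0.37 ± 0.10).

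The CI994 counts depended on single libraries. In shControl, 0 of the 6 calls were kept whichever library was left out: the count was 0 without CI994-treated replicate 1 and 1 without treated replicate 2. It was 5 higher and 3 lower without untreated shControl replicate 1, and 17 and 5 without untreated replicate 2. With the GC trend removed 7 rose and 1 fell, with Idi1 at -0.08 (adjusted p = 0.702), Cyp51 at -0.18 (adjusted p = 0.278) and Elovl6 at -0.33 (adjusted p = 0.0621), and the gene that then fell was Fads1 (-0.40, adjusted p = 0.0171). Fitting only the groups compared called 0 genes. Without untreated shControl replicate 1 the rises of Dhcr7 and Fads2 were 0.32 and 0.35, against 0.66 and 0.76 with it. In shTet2, Cyp51, Idi1, Msmo1 and Nsdhl were kept whichever library was left out. The count there was 8 higher and 13 lower without either untreated shControl library, and 4 lower without untreated shTet2 replicate 2 or treated replicate 1. In shMbd3 only Nsdhl was kept, and the Idi1 and Elovl6 calls were lost in 10 of 12 omissions. The count was 4 higher and 14 lower without shControl replicate 1, 3 and 14 without shControl replicate 2, and 1 to 3 lower when a shMbd3 library was left out.

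**Figure D4:**
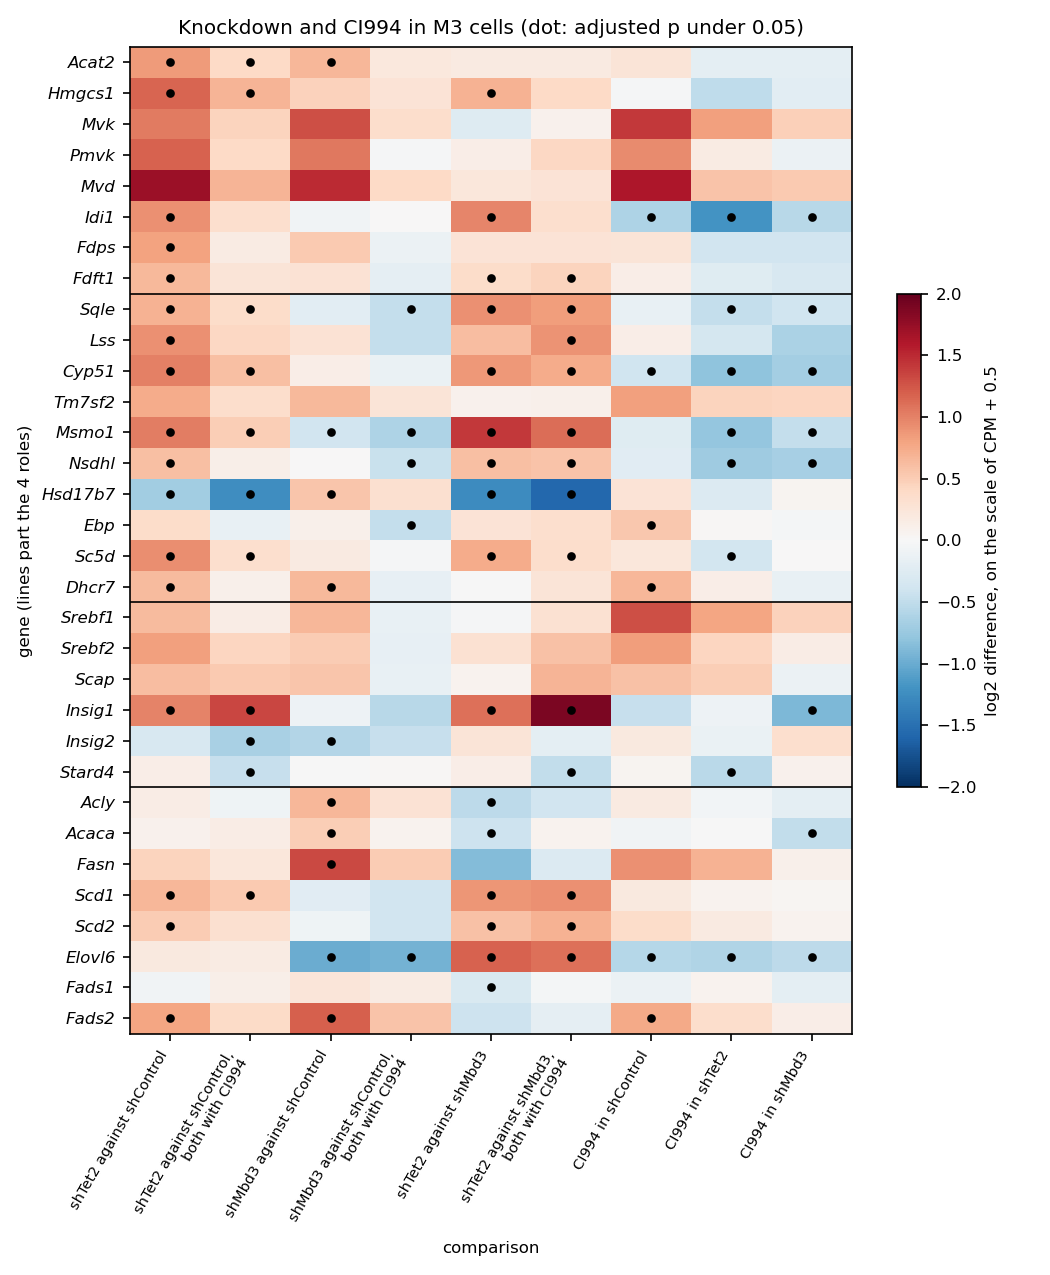
The log2 difference of each of the 32 genes (rows) in 9 comparisons of M3 cells (columns), on the scale of CPM + 0.5, with red for higher, blue for lower and dots for an adjusted p under 0.05. Dots of higher values cluster in the first 2 blocks of genes for shTet2 against shControl, and Hsd17b7 is blue wherever shTet2 is compared with another shRNA.

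With CI994 in both arms, shTet2 also differed from shControl in cholesterol genes. Here 8 genes were higher and 3 lower, where 6.69% of all tested genes were higher and 9.28% lower, and the median log2 difference was 0.34 against 0.00. Insig1 was 81.6 and 109 CPM in shControl with CI994 and 231 and 251 CPM in shTet2 with CI994 (1.34 ± 0.19, adjusted p = 0.00126). Hmgcs1 was 78.5 and 105 CPM against 139 and 152 CPM (0.67 ± 0.16, adjusted p = 0.0237). Hsd17b7 was 55.7 and 68.2 CPM against 23.9 and 27.7 CPM (-1.25 ± 0.17, adjusted p = 0.00106), and Insig2 was 120.4 and 114 CPM against 74.3 and 75.7 CPM (-0.65 ± 0.15). The groups did not overlap in these 4 genes. Cyp51, Msmo1, Sqle, Sc5d, Scd1 and Acat2 were the other genes that rose, by 0.33 to 0.60 on the log2 scale, and Stard4 the other that fell (-0.46 ± 0.12). Only Hsd17b7 and Insig1 were kept whichever library was left out. The count of 11 went down to 2 without shControl with CI994 replicate 1 or shTet2 with CI994 replicate 2. It was 4 without shTet2 with CI994 replicate 1 and 5 without shControl with CI994 replicate 2, and 7 without any one untreated shTet2 or shMbd3 library. It went up to 20 without either untreated shControl library.

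With CI994 in both arms, shMbd3 had 0 genes higher and 5 lower than shControl, where 8.11% of all tested genes were higher and 11% lower, and the median log2 difference was -0.13 against 0.00. That median was -0.03 without shControl with CI994 replicate 2, and -0.00475 and -0.21 without shMbd3 with CI994 replicate 1 and 2. By limma 11 genes in all had an unadjusted p under 0.05, DESeq2 called 0 higher and 6 lower, and edgeR 0 and 5. The 5 were Elovl6 (-0.95 ± 0.14, adjusted p = 0.00134), Msmo1 (-0.62 ± 0.10, adjusted p = 0.00261), Sqle (-0.47 ± 0.09), Nsdhl (-0.44 ± 0.10) and Ebp (-0.48 ± 0.13). Elovl6 was 119.8 and 133 CPM in shControl and 60.7 and 73.5 CPM in shMbd3, and Msmo1 147 and 146 CPM against 92.8 and 102 CPM, both without overlap. These 2 calls were kept whichever library was left out. The fatty acid rises seen without CI994 did not pass here: Fasn was 0.50 ± 0.43, Fads2 0.57 ± 0.22, Acly 0.30 ± 0.14 and Acaca 0.08 ± 0.09. The count was 4 higher and 10 lower without either untreated shControl library, 3 without either shControl library with CI994, and 2 without shMbd3 with CI994 replicate 1. It was 2 higher and 7 lower with the GC trend removed, and 3 and 9 when only the groups compared were fitted.

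Whether CI994 altered the knockdown effect was tested as an interaction, the knockdown difference with CI994 minus that without it. By limma 0 of the 32 genes passed for shTet2, where 0.414% of all tested genes passed upwards and 0.273% downwards, and 12 had an unadjusted p under 0.05. For shMbd3 0 passed, against 0.039% in each direction, and 8 had an unadjusted p under 0.05. The interaction was above 0 in 3 of the 32 genes for shTet2 and in 4 for shMbd3, with a median of -0.43 in both and medians over all genes of -0.04 and -0.03. The smallest adjusted p-values for shTet2 were those of Sc5d (-0.59 ± 0.13, adjusted p = 0.097), Msmo1 (-0.53 ± 0.14, adjusted p = 0.156) and Stard4 (-0.59 ± 0.16, adjusted p = 0.161). EdgeR called 0 genes for both, and DESeq2 1 for shTet2 (Sc5d, -0.57, adjusted p = 0.0129) and 0 for shMbd3. Both interactions use untreated shControl. Without its replicate 1 the count was 4 for shTet2 (Msmo1, Nsdhl, Sc5d and Stard4, all below 0) and 0 for shMbd3, and the medians were -0.17 and -0.18. Without its replicate 2 the counts were 22 and 19. With the GC trend removed they were 2 (Nsdhl and Sc5d) and 1 (Nsdhl).

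Genes beside the pathway were read from lists of related functions. In the clones, fatty acid oxidation genes were higher than in Py2T LT in 10, 12 and 10 of 12 tested genes in M1, M2 and M3, where 30.4%, 28.7% and 30.3% of all tested genes were higher, and lower in 0. The medians of that list were 0.53, 0.78 and 0.51. Cpt1a, which admits fatty acids to mitochondria, was 7.87 and 8.53 RPKM in Py2T LT, 76.8 and 88.6 in M1, 123 and 113 in M2, and 94.7 and 91.6 in M3 (3.21 ± 0.11, 3.75 ± 0.11 and 3.43 ± 0.11). Of 12 tested genes of sterol uptake, traffic, storage and efflux, 6, 5 and 6 were higher and 2, 3 and 2 lower, with medians of 0.51, 0.15 and 0.44. The cholesterol exporter Abcg1 rose to 9.17 to 10.5 RPKM in the clones from 1.58 and 1.49 RPKM in Py2T LT (2.25 ± 0.11 in M3), and the lipoprotein receptor Scarb1 fell in M3 (-0.94 ± 0.09). The acyl-CoA synthetase Acsl1 was 1.18 and 1.06 RPKM in Py2T LT and 13.0 to 16.0 in the clones.

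The same lists were read in the knockdowns. For shTet2 against shControl 3 of 13 fatty acid oxidation genes rose and 1 fell, and in the isoprenoid branches of mevalonate 0 of 8 passed by limma, where Coq2 of ubiquinone synthesis came nearest (0.44 ± 0.15, adjusted p = 0.0611). Of all tested genes 10.5% rose and 12.9% fell. Soat1, which esterifies cholesterol for storage, was 78.2 and 63.4 CPM in shControl and 33.1 and 31.4 CPM in shTet2 (-1.09 ± 0.14). Acss2, which makes acetyl-CoA from acetate, was 4.71 and 4.94 CPM against 11.5 and 9.61 CPM (1.08 ± 0.16). The lipoprotein receptor Vldlr was 24.0 and 16.4 CPM in shControl and 1.21 and 0.803 CPM in shMbd3 (-3.82 ± 0.22, adjusted p = 9.2e-06), and with CI994 15.8 and 16.1 CPM against 1.43 and 1.24 CPM (-3.19 ± 0.22). With CI994 Acss2 rose in all 3 shRNA groups, by 1.98 ± 0.16 in shControl, 1.45 ± 0.16 in shTet2 and 1.30 ± 0.16 in shMbd3. In shTet2 with CI994 its values were 34.1 and 28.3 CPM.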

How the data were processed

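Strand-specific total RNA libraries from 20 samples were sequenced, per the labels' protocols. STAR and the mouse build mm10 are named, per the submitters' processing notes, and how reads were counted, and on which strand, is not given in the sources used here. The authors deposited RPKM for Py2T LT, M1, M2 and M3 and CPM for the 6 M3 shRNA groups, each keyed by NCBI Gene number. Symbols were found for 19262 of 19311 and 24374 of 24454 of these numbers in RefSeq. All CPM values gave whole reads within 0.01 reads, so read counts were recovered from the deposited CPM. The 7 further columns of one RPKM file were copies of the other files.

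The 2 sets were fitted separately, all groups of a set in 1 model, with limma 3.58.1 (trend, robust; R 4.3.3) on log2(value divided by its TMM factor + 0.5), which understates the change of low genes. Genes needed 1 RPKM or 0.5 CPM in 2 or more libraries, which left 11717 and 12808 genes, all 32 members among them in both. p-values were adjusted by Benjamini-Hochberg over all genes tested, and a call is an adjusted p under 0.05. Alternatives were other scalings, no filter, pseudocounts of 0.1 and 1, a block for the replicate number, a fit on the compared groups alone, removal of each library's GC trend, edgeR 4.0.16 and DESeq2 1.42.0 on recovered reads, and leaving out each library. The fits were tested on simulated data.

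The members and lists were chosen with earlier results of these data known. Any member could be named, and from each other list at most 2 genes a comparison, those with the smallest adjusted p in each direction. Promoters came from RefSeq GRCm38.p6, and 7 members had no entry.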

Additional observations from a re-analysis of the deposited data

How the results depend on the processing

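No called member changed sign under any alternative run. Counts of called members, in either direction, are given where they moved by more than 1.5 times. The groups share replicate numbers, but the labels do not say that a number marks a shared experiment. The correlation of replicate differences across genes was 0.0958 to 0.524 over the 15 CPM pairs of groups, all above 0. Over the 6 RPKM pairs it was -0.123 to 0.128. The fit reported did not pair samples by these numbers, and whether they mark a shared experiment was not tested. With the replicate number as a block the counts were 14 for CI994 in shControl (6 in the fit reported), 17 for shMbd3 against shControl (10) and 11 for the same with CI994 (5). The block changed no other count of calls by that much. With the GC trend removed the count was 9 for shMbd3 against shControl with CI994, 2 for the shTet2 interaction and 1 for the shMbd3 interaction (0 each in the fit reported). With the GC trend removed and the block together the counts were 18 for CI994 in shControl, 15 for CI994 in shMbd3, 20 for shMbd3 against shControl, 18 for the same with CI994, 21 for shTet2 against shControl with CI994, 22 for shTet2 against shMbd3 with CI994, 12 for the shTet2 interaction and 9 for the shMbd3 interaction. Fitting only the groups compared gave 0 for shTet2 against shControl, shMbd3 against shControl, CI994 in shControl and M1 against M3. It gave 6 for M2 against M1, 21 for CI994 in shTet2, 13 for CI994 in shMbd3, 22 for shTet2 and 12 for shMbd3 against shControl with CI994, and 21 for shTet2 against shMbd3 with CI994. Without the filter on low values M2 against M1 gave 7, and DESeq2 called 1 gene for the shTet2 interaction. The cause of these shifts was not tested.

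Leaving out 1 library at a time gave 8 to 21 for M2 against Py2T LT, 0 to 12 for M1 against M3, 2 to 17 for M2 against M1 and 3 to 18 for M2 against M3. For shTet2 against shControl it gave 10 to 28, and with CI994 2 to 20. For shMbd3 against shControl it gave 4 to 22, and with CI994 2 to 14. For shTet2 against shMbd3 it gave 10 to 22, and with CI994 8 to 22. For CI994 it gave 0 to 22 in shControl, 4 to 21 in shTet2 and 1 to 18 in shMbd3. The interactions gave 0 to 22 for shTet2 and 0 to 19 for shMbd3. In these fits the library left alone in its group is assumed to vary like the others.

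The strand used in counting is not given, and several members share exon bases with another gene. Among them are Hmgcs1 with Gm48342 over 557 bases, Fdft1 with Ctsb over 774 and Scap with 5830462I19Rik over 985, all on opposite strands. Fdps shares 1124 bases with Gm43738 and Tm7sf2 532 bases with Vps51, both on the same strand. At the depth of the CPM libraries none of the members was near the limit of detection. In the RPKM set, whose absolute depth is unknown, Idi1 was close to the filter of 1 RPKM.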

Other observations

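The 2 sets share M3 cells without CI994, so the level of each member can be set across them. The tables were normalised separately, however, and M3 with shControl is not the same culture as M3. The CPM of untreated shControl replicate 2 was divided by the M3 RPKM times the exon length, and the ratio was set against that of the median of 9922 genes. Most members stood above the median gene. Idi1 stood at 57.0 times the median gene, Insig1 at 9.90, Fdps at 8.47, Fdft1 at 6.48 and Cyp51 at 4.72 times. Acat2 (3.40 times), Hmgcs1 (3.15 times) and Nsdhl (3.10 times) followed. Srebf1 (0.461 times), Scap (0.505 times), Tm7sf2, Srebf2, Mvk, Fasn, Dhcr7 and Fads2 stood below it. The reason was not tested. The ratio compares 1 library with the mean of 2 and has no replicate check.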
